A study of Mus musculus with 3 samples.

Results

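The connexin and pannexin transcripts of the mouse choroid plexus epithelium (CPE) were followed through every array probe that carries the name of one of 9 genes, Gja1, Gja4, Gja5, Gjb1, Gjb2, Gjb5, Gjb6, Panx1 and Panx2. The rule for membership uses the gene name and no measured value, but the genes were listed with earlier results of these data known. Probes were found for 8 of them, 14 probes in all, among 19694 named genes and 41174 probes on the array. Panx2 is not analysed here.

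The CPE is the epithelial sheet that covers the choroid plexus of the brain ventricles and secretes cerebrospinal fluid. It was cut out by laser dissection from frozen brain sections of 3 healthy adult female C57BL/6 mice, none of them treated or genetically altered. The RNA of each mouse was amplified, labelled with the red dye Cy5 and hybridised to an array of its own. Each array also carried, in the green dye Cy3, the same reference RNA, taken from RPE (retinal pigment epithelium) and choroid of wild type C57BL/6 eyes. No array had the dyes exchanged, so any preference of a probe for a dye remains in each ratio below, and the reference holds pigmented epithelium together with vessels and stroma.

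Connexins are membrane proteins that assemble in rings, and the rings of neighbouring cells dock to form gap junction channels through which ions and small metabolites pass. They are named after their mass or, as genes, by family: alpha (Gja), beta (Gjb), gamma (Gjc) and delta (Gjd). Pannexins have a similar fold but mostly form channels in a single membrane and release ATP. Gja1 encodes connexin43 (Cx43), the most widespread connexin, found in astrocytes, heart and many epithelia. Gja4 and Gja5 encode Cx37 and Cx40 of the vessel wall, and Gjb1 encodes Cx32 of hepatocytes and myelinating glia. Gjb2 and Gjb6 encode Cx26 and Cx30, which pair in the cochlea and in the leptomeninges, and Cx30 is also an astrocyte protein.

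The array of mouse 3 stood apart from the others. Of all probes, 85.6% were well above background in its CPE channel, against 58.5% for mouse 1 and 46% for mouse 2. Its fitted background in that channel was 363 intensity units, against 81.2 and 82.6. All 14 connexin and pannexin probes were above background in the CPE of mouse 3, 8 in mouse 1 and 6 in mouse 2. A result that rests on mouse 3 is therefore given with and without it.

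In the CPE, 5 of the 8 genes were detected on every array, namely Gja1, Gja4, Gjb2, Gjb6 and Panx1. The other 3, Gja5, Gjb1 and Gjb5, were not above background by their brightest probe in mice 1 and 2. Counted by probe, 6 of the 14 were above background in all 3 CPE samples, and over the whole array 44.9% were. Levels below are log2 intensities after correction for background and dye, which can be compared between arrays and channels for 1 probe but not between probes.

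Against the reference, 4 of the 8 genes passed the threshold of an adjusted p under 0.05 and a 2-fold difference, 3 of them lower and 1 higher in CPE. Among all 14589 genes tested by their brightest probe, 20.5% passed, with 9.25% higher and 11.3% lower. Only 5 of the 8 genes could be tested by that probe, since a test required a signal above background in 1 of the channels on every array. Counted by probe, 9 of the 14 were tested and 5 passed, 4 lower and 1 higher, where 17.3% of all tested probes passed, 10.2% lower and 7.09% higher. The median log2 ratio of the 5 genes tested by their brightest probe was −1.29, and that of all genes tested was −0.01.

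Gja1 was the member with the lowest ratio. Its level in CPE was 7.98, 8.45 and 7.33 in mice 1, 2 and 3, and the reference on the same arrays stood at 11.59, 11.71 and 10.76. Every CPE value lay below every reference value, and mouse 3 was the lowest in both channels. The log2 ratios were −3.61, −3.26 and −3.43, a mean of −3.43 ± 0.16 (SE, n = 3), or 10.8-fold lower in CPE (limma, adjusted p = 1.05e-05). Only 0.857% of the genes tested had a ratio as low. Gja1 transcript was nevertheless above background in all 3 CPE samples, and its probe ranked at the 67.8th percentile there and at the 95th in the reference. The probe lies on the plus strand of chr10:56078423-56078482 in mouse build mm8.

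Gjb2 was also lower in CPE by its brighter probe, the one nearer the 3′ end of the gene, at chr14:56052902-56052961 (mm8, minus strand). It read 9.18, 9.43 and 8.18 in the CPE of mice 1, 2 and 3, and 11.21, 11.34 and 10.54 in the reference. The groups did not overlap, and the CPE of mouse 3 was again the lowest. The mean log2 ratio was −2.10 ± 0.16 (SE, n = 3), or 4.29-fold lower (limma, adjusted p = 8.78e-05). The second Gjb2 probe, 1438 bases away toward the 5′ end, gave another picture, with ratios of 0.66, −0.36 and −0.21 and a mean of 0.03 (adjusted p = 0.928). This probe was dim in both channels. Its CPE level was 7.57, 6.51 and 6.80, above background in mice 1 and 3 but not in mouse 2, and its reference level was 6.91, 6.87 and 7.01. The 3′ probe gave the lower ratio in each of the 3 mice, and the log2 ratio of the 3′ minus that of the 5′ probe was −2.69, −1.55 and −2.15 in mice 1, 2 and 3. An exact two-sided sign permutation test of 3 differences cannot give a p below 0.25, so it could not decide whether the probes differ. The call of Gjb2 rests on 1 probe, since the 5′ probe was not called.

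Gjb6, the neighbour of Gjb2 in the genome, was lower in CPE by both of its probes. The brighter, 3′ probe at chr14:56077499-56077558 (mm8, minus strand) read 8.07, 8.91 and 8.63 in CPE and 10.12, 10.14 and 9.21 in the reference. All CPE values lay below all reference values, but the gap was narrow on the array of mouse 3. The log2 ratios were −2.05, −1.22 and −0.58, with a mean of −1.29 ± 0.26 (SE, n = 3), or 2.44-fold lower (limma, adjusted p = 0.00734). The 5′ probe, 791 bases away, gave −1.30, −1.84 and −1.71, a mean of −1.61 ± 0.17 (adjusted p = 0.000351). The mice ranked differently by the 2 probes: mouse 1 had the lowest ratio by the 3′ probe and the highest by the 5′ probe. The call of the 3′ probe was lost without mouse 1 (−0.90, adjusted p = 0.0365, under 2-fold) and with median centring in place of loess (−0.79, adjusted p = 0.0729), and that of the 5′ probe was kept in both. In the test against 2-fold neither Gjb6 probe was called (limma treat, adjusted p = 1 and 0.0643).

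Gja4 was the only member called higher in CPE. Its probe at chr4:126813908-126813967 (mm8, minus strand) read 9.86, 9.83 and 9.62 in the CPE of mice 1, 2 and 3. The reference stood at 7.73, 7.74 and 8.57. The CPE values lay within 0.24 of each other, and all exceeded the reference. The log2 ratios were 2.13, 2.08 and 1.05, a mean of 1.75 ± 0.23 (SE, n = 3), or 3.37-fold higher (limma, adjusted p = 0.00106). Without mouse 3 the mean was 2.10. Of the genes tested, 97.2% had a lower ratio. A stricter test, of whether the change exceeded 2-fold, did not call Gja4 (limma treat, adjusted p = 0.101).

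Panx1, the widely expressed ATP-releasing pannexin, was 1.86-fold lower in CPE by its brighter 3′ probe and did not reach the 2-fold limit. Levels were 7.51, 7.68 and 7.97 in CPE and 8.62, 8.50 and 8.73 in the reference. The groups did not overlap and the spread within each was small. The mean log2 ratio was −0.90 ± 0.16 (SE, n = 3; limma, adjusted p = 0.00378). The 5′ probe, 2109 bases away, was above background in the CPE of mouse 3 alone and gave −0.09 (adjusted p = 0.675). With the scanner software's own log ratio the 3′ probe passed the threshold (−1.31, adjusted p = 0.0228).

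**Figure D1:**
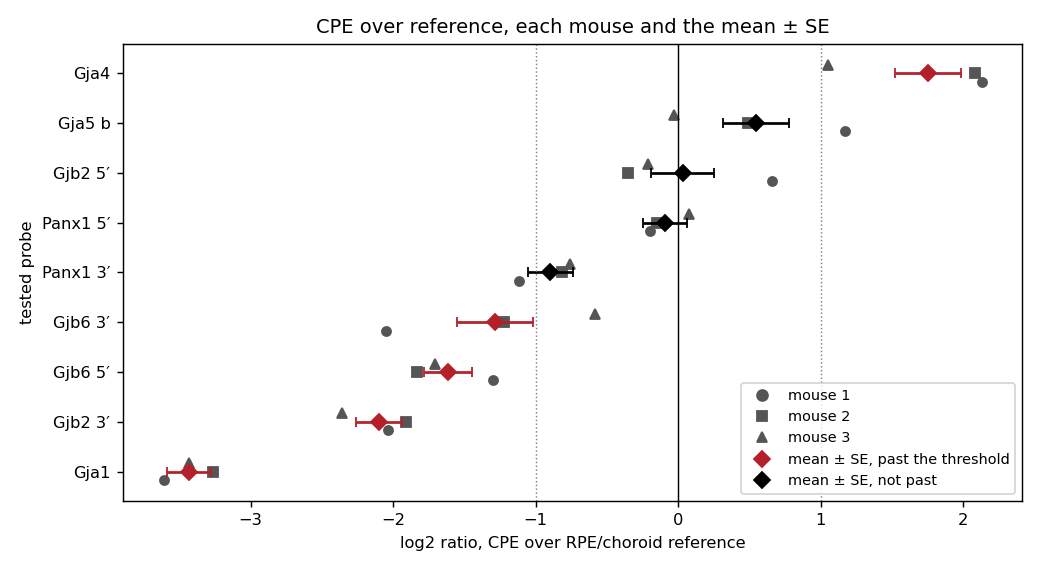
Log2 ratio of CPE over reference (horizontal axis) for the 9 tested probes (vertical axis), with 1 grey symbol for each mouse, the mean as a diamond and the standard error of the limma fit as its bar; dotted lines mark 2-fold. Gja4 sits at 1.75, right of the line, and Gja1, Gjb2 3′ and both Gjb6 probes lie left of −1, while the 5′ probes of Gjb2 and Panx1 lie at 0.03 and −0.09.

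The plot of ratios shows that the 3 mice fell on the same side of 0 for each of the 5 probes past the threshold. These probes were called from the same ratios, so the shared sign is not separate evidence. The plot also shows that mouse 3 was nearest to 0 for Gja4 and for the 3′ probe of Gjb6. Read by the brightest probe, alpha connexins went both ways, and the beta connexins that could be tested were both lower.

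The brightest probes of the remaining 3 genes were above background on the array of mouse 3 alone. Gjb1 (chrX:97587217-97587276, mm8, plus strand) ranked at the 36th percentile of the CPE channel in mouse 1, the 20th in mouse 2 and the 60.9th in mouse 3. In the reference channel, whose RNA was the same on each array, it ranked at 3.26, 4.49 and 58.1. Gjb5, which encodes a connexin of stratified epithelia (chr4:126857725-126857784, mm8, minus strand), ranked at 16.5, 1.76 and 66.3 in CPE and at 2.89, 1.32 and 65.1 in the reference. Both probes thus ranked higher on array 3 in either channel, and neither was above background in the CPE of mice 1 and 2. Their log2 ratios of 0.37 and 0.09 could not be tested.

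Gja5 was read by 4 probes that do not lie together. A pair designed on its RefSeq transcript lies at chr3:97136450-97136509 and chr3:97138831-97138890 (mm8). The other pair, designed on a cDNA clone, starts at 98496448 and 98497154 on the same chromosome, and all 4 probes span 1360764 bases, so that the name Gja5 is uncertain for the second pair. It held the probe taken for the gene as the brightest by the mean of both corrected channels before normalization between arrays, and it read 7.08, 6.71 and 7.36 in CPE and 6.76, 6.73 and 7.32 in the reference after that step. In CPE that probe ranked at the 35.5th percentile, and the transcript probes at 38.9 and 41.8. Only the transcript probe at 97138831 could be tested. It gave log2 ratios of 1.17, 0.49 and −0.03, falling on both sides of 0, with a mean of 0.54 ± 0.23 (SE, n = 3; limma, adjusted p = 0.102). In CPE it was above background in mice 1 and 3 and not in mouse 2.

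**Figure D2:**
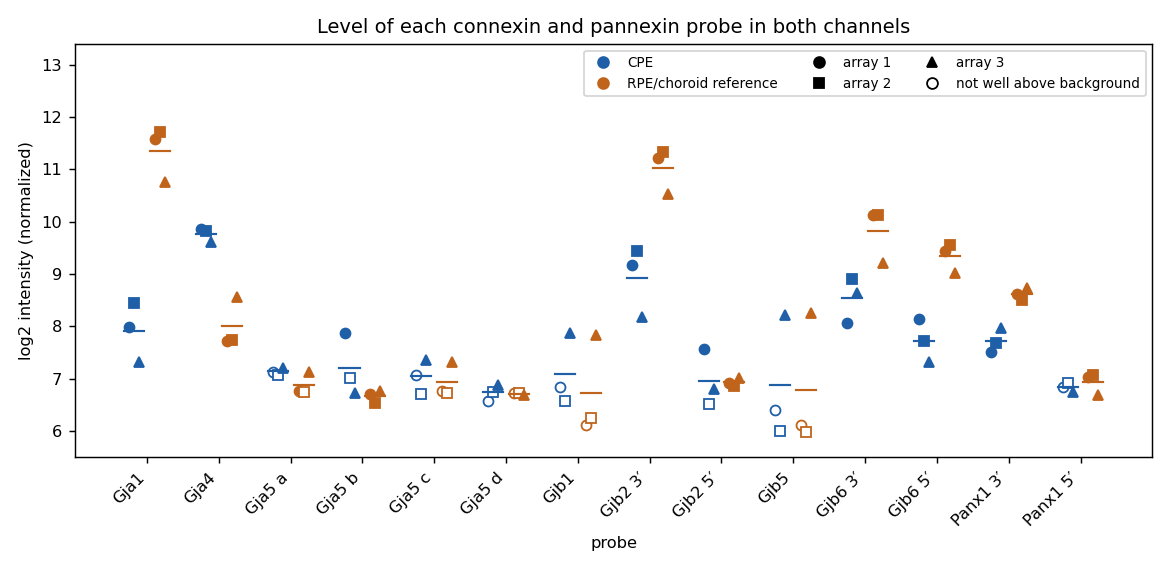
Normalized log2 intensity (vertical axis) of the 14 connexin and pannexin probes (horizontal axis) in CPE (blue) and reference (orange) on arrays 1 to 3, with the mean as a line and open symbols for values not well above background; Gja5 a and b are the transcript pair, c and d the cDNA pair. Gja1 reference values lie between 10.76 and 11.71, and Gjb1 and Gjb5 are filled only on array 3, in both colours.

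The plot of levels shows how far the arrays differed for the same reference RNA. The SD of the reference level over the 3 arrays ranged from 0.01 for a Gja5 probe to 1.27 for Gjb5, and that of the CPE level from 0.07 to 1.18. The SD of CPE exceeded that of the reference for 7 of the 14 probes. Since the reference held 1 RNA, its SD contains no difference between mice, and the spread of the CPE levels was of the same order. Over the 14 probes the ratio within an array had a median SD of 0.21, against 0.42 for the CPE level. Among the called probes this differed. The ratio varied less than the CPE level for Gja1, the 3′ probe of Gjb2 and the 5′ probe of Gjb6. It varied more for Gja4, with an SD of 0.61 against 0.13, and for the 3′ probe of Gjb6, with 0.74 against 0.43.

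A second reading of the same arrays ranked each probe among all 41174 by its uncorrected CPE intensity. Expression is called high if the rank exceeds the 90th percentile, moderate down to the 50th, low down to the 10th and very low beneath it. By the brightest probe and over all 3 mice, no member was high and none was very low. Moderate expression was found for 5 of the 8 genes, and over all genes 65.6% ranked at or above the 50th percentile. Gja4 stood first at 85.1, followed by Gjb2 at 78.9, Gjb6 at 73.3, Gja1 at 67.8 and Panx1 at 58.9. Gjb1, Gjb5 and Gja5 were low, at 43.8, 39.7 and 35.5. Without mouse 3 these 3 stood at 29.4, 6.22 and 28.5, which is very low for Gjb5, and the tested transcript probe of Gja5 moved from 41.8 to 51.4. Hybridisation efficiency differs between probes, so this order is one of signal and not of transcript amount.

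The values of Gja4 in single mice lay between 84.2 and 84.5 and above every mouse of Gjb2, which ranged from 68.7 to 82.6. All later neighbours in the order overlapped over the mice. Gjb6 ranged from 66.1 to 76.7, Gja1 from 58.7 to 72.7 and Panx1 from 55.9 to 63.0. When the ranks were taken only over probes above background in CPE, 2 genes, Gja4 and Gjb2, remained at or above the 50th percentile.

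**Figure D3:**
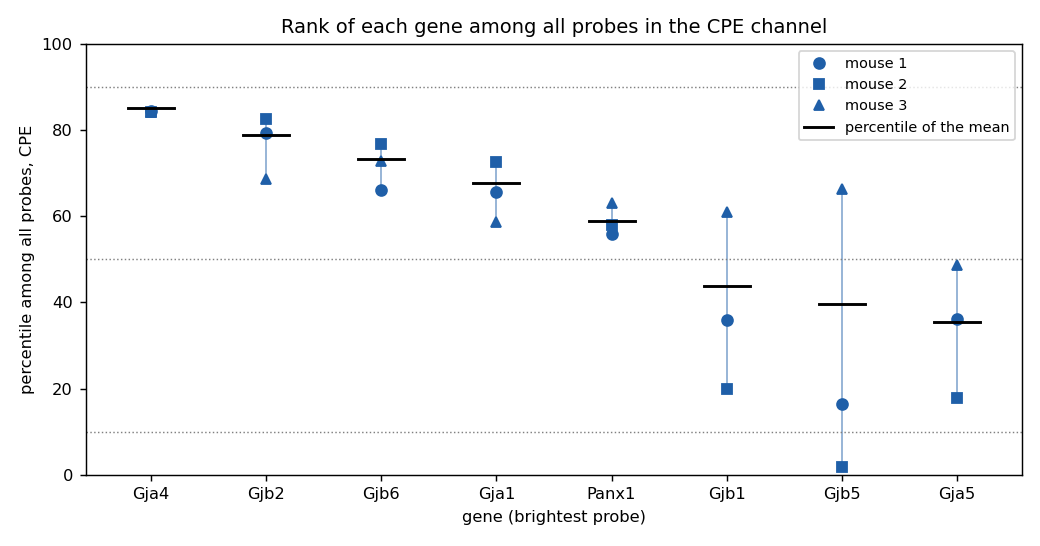
Percentile of the brightest probe of each gene among all probes in the CPE channel (vertical axis), ordered by the percentile of the mean (black line), with 1 symbol for each mouse and dotted lines at the class limits of 10, 50 and 90. The 3 mice of Gja4 lie between 84.2 and 84.5, just under the percentile of their mean at 85.1, and Gjb5 runs from 1.76 in mouse 2 to 66.3 in mouse 3.

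The upstream sequences of the genes past the threshold are shown because 1 of them moved against the others and because Gjb2 and Gjb6 are neighbours on 1 chromosome. In the RefSeq gene order of GRCm38.p6 the row runs Gja3, Gjb2, Gjb6. The windows are the 250 bases before the RefSeq start in GRCm38.p6, at chr10:56377050-56377299 (plus strand) for Gja1, chr4:127314040-127314289 (minus) for Gja4, chr14:57104703-57104952 (minus) for Gjb2 and chr14:57133612-57133861 (minus) for Gjb6. Capitals mark matches on either strand to 3 short motifs. The GC box, bound by Sp1 factors, was searched as GGGCGG. The second was the TATA box of core promoters, with the letters TATAAA. The third was the site of the AP-1 factors Fos and Jun, searched with the letters TGANTCA. No match overlapped another.
Gja1: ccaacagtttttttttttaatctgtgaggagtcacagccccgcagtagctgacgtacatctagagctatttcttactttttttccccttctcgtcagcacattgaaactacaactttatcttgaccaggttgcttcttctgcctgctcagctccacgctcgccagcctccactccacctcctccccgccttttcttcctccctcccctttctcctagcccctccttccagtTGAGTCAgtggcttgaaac
Gja4: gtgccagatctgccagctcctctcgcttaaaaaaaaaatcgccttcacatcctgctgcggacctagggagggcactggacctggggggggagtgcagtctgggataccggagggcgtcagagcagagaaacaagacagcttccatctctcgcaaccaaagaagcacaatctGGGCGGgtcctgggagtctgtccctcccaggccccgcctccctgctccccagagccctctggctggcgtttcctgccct
Gjb2: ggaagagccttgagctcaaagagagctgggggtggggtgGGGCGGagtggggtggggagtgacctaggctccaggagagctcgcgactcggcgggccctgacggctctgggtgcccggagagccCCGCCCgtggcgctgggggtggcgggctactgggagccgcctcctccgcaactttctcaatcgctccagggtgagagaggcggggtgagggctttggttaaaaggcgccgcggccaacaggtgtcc
Gjb6: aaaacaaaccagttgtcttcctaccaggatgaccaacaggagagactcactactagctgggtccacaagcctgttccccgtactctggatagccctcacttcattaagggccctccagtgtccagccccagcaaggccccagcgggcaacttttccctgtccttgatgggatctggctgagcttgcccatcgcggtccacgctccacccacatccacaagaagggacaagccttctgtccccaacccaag

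Gja1 held an AP-1 match, which 6.75% of 32851 windows of this length held. Gja4 held 1 GC box and Gjb2 held 2, in both orientations, and 32.7% of all windows held at least 1. Gjb6 matched none of the 3 motifs. The TATA box was found in 12.4% of all windows and in none of these 4. CG dinucleotides numbered 18 for Gjb2 and 5 for its neighbour Gjb6, 6 for Gja1 and 9 for Gja4, against a median of 6 over all windows. These are letters in a window, and nothing on these arrays measured binding or methylation.

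Other connexins and Panx3 were read from a list of 14 genes, all with probes. Only 5 could be tested, of which 1 passed the threshold as lower and none as higher, with a median log2 ratio of −0.18. Over all genes tested, 11.3% passed as lower and 9.25% as higher. In CPE, 12 of the 14 were above background in neither mouse 1 nor mouse 2. Of all probes, 58.5% were above background in the CPE of mouse 1 and 46% in that of mouse 2. The gene that passed was Gjd2, which encodes the neuronal Cx36 of electrical synapses and stands under its former name Gja9 in the scanner files. Its ratios were −3.22, −2.61 and −2.72, a mean of −2.85 ± 0.18 (SE, n = 3; limma, adjusted p = 3.3e-05). Gjd2 entered the test through the reference, since its CPE level was above background in mice 1 and 3 and not in mouse 2, and it could not be tested where both channels had to be above background, which left the list with no call.

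Gjc1, which encodes Cx45 of cardiac conduction tissue and vascular smooth muscle and is named Gja7 in the scanner files, was the only one of the list above background in CPE on all arrays. Its brighter probe read 9.90, 10.03 and 9.79 in CPE and 9.09, 9.16 and 9.39 in the reference. The groups did not overlap. The mean log2 ratio was 0.70 ± 0.17 (SE, n = 3; limma, adjusted p = 0.0137), and a second probe gave 0.94 ± 0.17 (adjusted p = 0.00446), both under 2-fold. By the brighter probe the limma adjusted p was 0.107 without mouse 1, 0.0547 without mouse 2 and 0.00755 without mouse 3. Without mouse 3 the ratio was 0.84, still under 2-fold. With median centring the ratio passed the threshold at 1.21 (adjusted p = 0.0189). Gjc1 ranked at the 86.8th percentile in CPE.

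Among 23 genes whose proteins anchor connexins or regulate gap junctions, all were tested, with a median log2 ratio of −0.27. In CPE 3 were higher and 5 lower, against 9.25% and 11.3% of all genes tested. Those lower included Tjp1, the ZO-1 scaffold that binds the tail of Cx43, at −1.84 (adjusted p = 0.000159). Cav1 and Cav2, the caveolins of membrane caveolae, stood at −2.24 and −1.21, Cdh1, the E-cadherin of epithelial contacts, at −1.41, and the kinase Prkce at −1.71. Those higher were Prkaca, the catalytic subunit of protein kinase A, at 1.65, the scaffold Tjp3 at 1.46 and the actin-binding Dbn1 at 1.78. For Tjp3 and Dbn1 mouse 3 gave the smallest ratio, 0.57 and 0.65, against 1.88 to 2.51 in the other mice. The balance of this list turned with median centring in place of loess, where 7 genes were higher and 3 lower and Cdh1 and Cav2 did not pass.

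Of 16 genes of ATP release and purine signalling, 1 was higher and 4 were lower, against 9.25% and 11.3% of all genes tested. The median of the list was −0.24. Of those lower, Nt5e, which forms adenosine outside the cell, stood at −1.91, the ATP-degrading Entpd2 at −1.23 and the receptor P2ry1 at −1.19. P2ry1 was above background in the CPE of mouse 1 alone and was tested through the reference. Its call was lost without background correction (−0.89), that of Entpd2 with median centring (−0.84), and the test against 2-fold left 2 genes lower and none higher. Entpd3, also an ATP-degrading enzyme, stood at 1.89 (adjusted p = 0.0128), with 2.60, 2.81 and 0.26 in mice 1, 2 and 3. The value of mouse 3 lay far below the others, and without that mouse the mean was 2.71 (adjusted p = 0.000146).

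Among the genes with ratios most like those of Gja1 over the 3 arrays were Zfp91, Slc16a1, Aff1 and Gnat2, at Euclidean distances of 0.084, 0.11, 0.22 and 0.23 on the log2 scale among 14588 candidates. Gnat2 encodes the transducin of cones and Slc16a1 the lactate transporter MCT1.

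Markers of other cells the dissection or the reference could hold were read beside these results. Of 11 CPE markers, 9 were higher in CPE and none was lower. All 7 endothelial markers were above background in CPE, 1 was higher (Tie1, 1.21) and none lower. Their summed intensity was 9680 to 10700 in CPE and 9100 to 10400 in the reference. The log2 ratios of the other 6 were 0.95 for Pecam1, 0.94 for Cdh5, 0.38 for Emcn, −0.19 for Kdr, −0.33 for Tek and −0.54 for Cldn5, with adjusted p of 0.0434, 0.014, 0.0839, 0.405, 0.129 and 0.0328. Of the 7, Pecam1 varied most between mice, at 1.99, 0.59 and 0.27. Smooth muscle and pericyte markers were lower in CPE for 2 of 7 genes and higher for none. They summed to 14700, 6140 and 14900 in the CPE of mice 1, 2 and 3. The largest term of that sum in mice 1 and 3 was Acta2, which read 13.02, 10.38 and 13.18 in mice 1, 2 and 3. The part of vessel cells in the Gja4 level was not tested. Ependymal markers, of the ciliated cells that line the ventricles, were higher for 3 of 4 genes, with sums of 12200 to 17700 in CPE and 6010 to 7280 in the reference. Whether these transcripts came from ependyma or from the CPE itself was not tested. Oligodendrocyte markers were higher for 2 of the 5 tested, with 5620 to 7080 against 3680 to 3860, while Gjb1, a connexin of these cells, was not above background in the CPE of mice 1 and 2.

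Markers of several other cell types were lower in CPE, as Gja1, Gjb2 and Gjb6 were. Stromal markers were lower in CPE for 5 of 6 genes, with sums of 18700 to 21200 against 117000 to 135000, and surface epithelium markers for 5 of 6, with 6800 to 8250 against 67400 to 83700. Of 6 astrocyte markers 3 were lower and 1 higher, with 7230 to 7610 against 20500 to 21700, and all were above background in CPE. The largest term of both sums was Aldoc, at 11.51 in CPE and 13.94 in the reference. The log2 ratios of the others were −1.28 for Aqp4, −1.27 for Slc1a2, −0.57 for Slc1a3, 0.44 for Gfap and 1.01 for Aldh1l1. Photoreceptor markers were lower for all 7, neuronal markers for 4 of 6 and macrophage markers for 3 of 5. RPE and melanocyte markers were lower for 9 of 10. In all 3 CPE samples 9 of the 10 were nevertheless above background, and Tyr, the pigment enzyme tyrosinase, was so in none. Fewer cells of a type and less transcript per cell cannot be told apart in these samples, and the part of these cells in the ratios of Gja1, Gjb2 and Gjb6 was not tested.

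**Figure D4:**
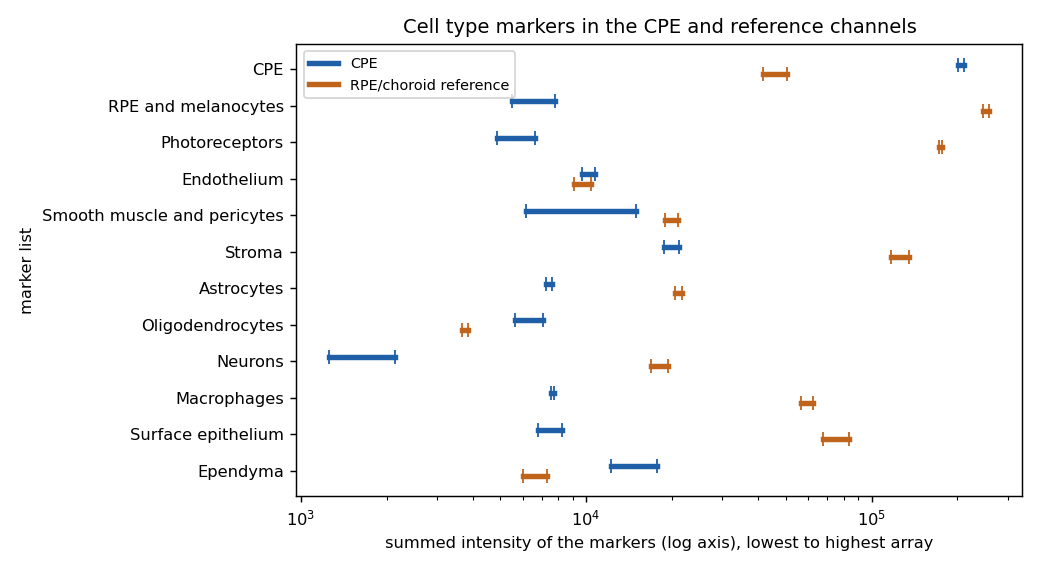
Summed intensity of each marker list (vertical axis), from the lowest to the highest of the 3 arrays, on a log horizontal axis, in CPE (blue) and reference (orange). The endothelial ranges overlap at 9680 to 10700 and 9100 to 10400, while the stromal range of CPE ends at 21200 and that of the reference starts at 117000.

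The called members were recomputed under each processing choice. Gja1 and the 3′ probe of Gjb2 passed in each of the 10 alternatives. Gja1 ranged from −4.11 to −2.84, Gjb2 from −2.33 to −1.47 and Gja4 from 1.57 to 2.28.

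**Figure D5:**
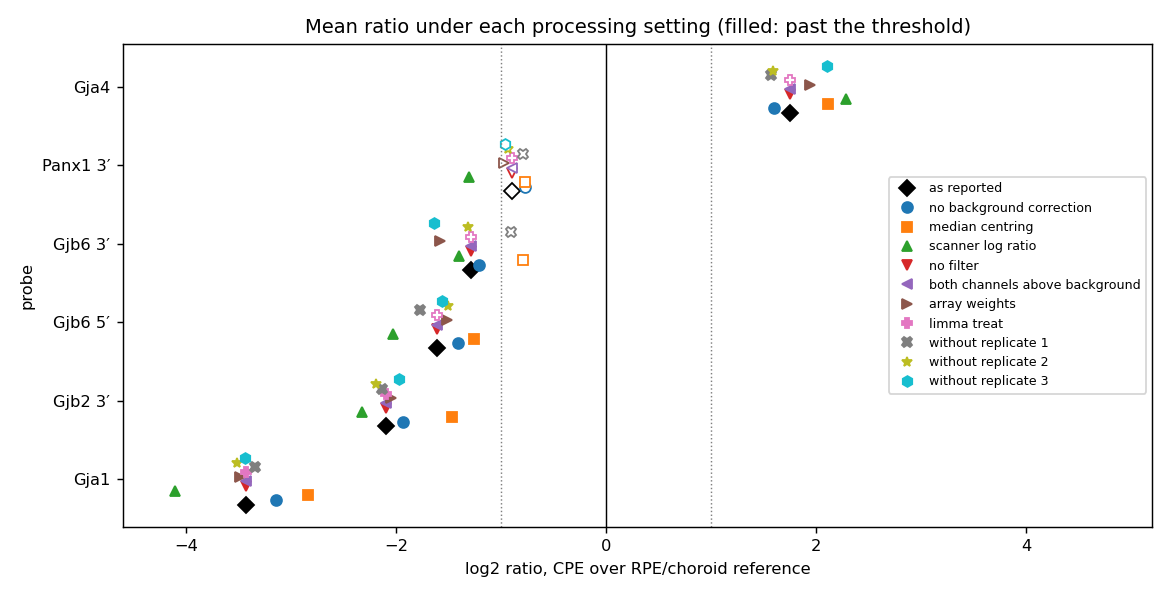
Mean log2 ratio of CPE over reference (horizontal axis) for the 5 called probes and Panx1 3′ (vertical axis) as reported and under 10 other settings, with filled symbols for a value past the threshold. No probe crosses 0, and open symbols appear for Gja4, for both Gjb6 probes and for Panx1.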

How the data were processed

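CPE RNA of 3 mice was measured on 3 two-colour arrays, 1 slide each, which form 1 group by their labels; p-values measure the spread between these arrays, and their number limits the precision. The authors' scanner software was Agilent Feature Extraction 9.5.3.1. The deposited scanner tables give for each spot the intensity of both channels, its local background and a log10 ratio of red over green. The deposited table of the series holds the authors' log2 values after Aquantile, whose rank correlation with the normalized red channel was 0.998 to 0.999; its background correction is not given in the sources used here, and it served as an alternative.

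In R 4.3.3 with limma 3.58.1, control and outlier spots were dropped, and replicate spots were averaged per probe. Intensities were corrected with normexp (offset 50) and loess. A probe was tested if either channel exceeded background clearly on every array, with an intercept alone in the moderated limma fit and Benjamini-Hochberg adjustment over 25841 probes. The reference was 1 RNA, so its biological spread is not in the error. Levels are log2 values after Aquantile of the corrected channels; percentiles used the uncorrected red channel. A gene was read by its brightest probe, and members were named with each of their probes. Other genes were named where they passed the threshold, and from the 5 nearest to Gja1 by distance; some genes these rules name are not reported here. Gjc1 and single markers were named after their values were seen. The members and gene lists were chosen with earlier results of these data known. Accessions of 23374 probes (56.8%) matched the GRCm38.p6 gene table. The others were matched by the file's gene name, as a symbol or a synonym, and kept that name where neither matched. The fit was tested on simulated data. Alternatives were another background correction, median centring, the scanner log ratio, other filters, array weights, a test against 2-fold and leaving out each mouse.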

Additional observations from a re-analysis of the deposited data

How the results depend on the processing

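The 4 genes past the threshold numbered 3 to 5 under each alternative other than a test against 2-fold, which left 2, Gja1 and Gjb2. Leaving out each mouse in turn gave 3 to 4. Over all probes the count of 4462 became 6762 with the scanner log ratio and 1414 in the test against 2-fold, and 4019 to 5351 when a mouse was left out. With median centring in place of loess, 67% of 5586 called probes were higher in CPE, against 41.1% as reported. The median log2 ratio of all tested probes moved from −0.04 to 0.09. The ratios of the called members rose as well, Gja1 from −3.43 to −2.84 and Gja4 from 1.75 to 2.11. The count of 5 genes at or above the 50th percentile was 5 without each mouse, 4 with 1 value per gene, where Panx1 fell to 42.7, and 2 when only probes above background in CPE were ranked. The 5′ probe of Gjb2, which was not called, changed sign, to −0.0900 with median centring and −0.154 with the scanner log ratio, and ran from −0.28 to 0.22 when a mouse was left out. Of the single ratios recomputed, 78 kept their direction and side of the threshold, 5 lost a call, 1 gained one and 3 reversed. The causes were not tested. CPE and reference are paired by array in each ratio, and a replicate block has no further use in 1 group. Signal over background limits Gjb1 and Gjb5, which were not above background in mice 1 and 2, and Gja5, of which 1 probe was above background in mouse 1 and none in mouse 2.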
